A study of Mus musculus with 2 samples.

Results

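The 41 genes described here belong to the machinery of DNA replication and cell division and serve as a readout of cycling cells. They were taken by symbol from a given list, by a rule that names no measured value but was set with earlier results of these data known, and all 41 were among the 31253 genes of the deposited matrices. The list holds 18 genes that peak in S phase (S members), 22 that peak in G2 phase and mitosis (G2M members) and Stmn1, which was placed in neither group. Their levels were followed in immune cells from mouse gliomas given EM or PBS.

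A dividing cell copies its DNA in S phase and separates the copies in mitosis. Genes for replication are switched on at the start of S phase, largely by E2F transcription factors. Genes for mitosis are kept silent in resting cells by a repressor complex that binds the CHR element of their promoters, and are switched on in G2. In tumours, dividing T cells are usually taken as cells that have recently met their antigen, whereas resident microglia and infiltrating macrophages divide at a lower and variable rate.

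The study concerns adoptive transfer of macrophages in glioma, per its title. Living immune cells of the host (CD45.2+CD45.1-) were sorted from mouse gliomas and made into single-cell libraries with the BD Rhapsody system, which captures cells in microwells with barcoded beads. There was 1 library from tumours given EM, taken at 72 h per its title, and 1 from tumours given PBS (phosphate-buffered saline), for which no time is given. No label spells out the letters EM, names the glioma model or strain, or gives the number of animals behind a library.

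With 1 library per group, no difference below has a replicate check and no test was possible. Each ratio was given a 95% interval for counting error only. It treats UMIs (unique molecular identifiers, 1 per captured RNA molecule) as independent, although a few cells can hold most of a gene's UMIs, so it understates the error and leaves out the spread between animals. The EM library held 7967 kept cells with a median of 2016 UMIs, and the PBS library 7756 cells with a median of 4303. The 2 libraries shared 66 cell barcodes, whose cells were kept. They also differed in sex-linked RNA, with Xist at 384 CPM (counts per 1000000 UMIs) in EM and 10.6 CPM in PBS and the Y-linked Ddx3y at 4.46 CPM in EM and 192 CPM in PBS. A difference between treatments and a difference between the animals of the 2 libraries therefore cannot be told apart.

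Cells were assigned to classes by the markers they contained. T cells numbered 5176 in EM and 4077 in PBS, with CD8 T cells (2606 EM and 3083 PBS), CD4 T cells (1046 EM and 463 PBS) and Foxp3+ regulatory T cells, or Treg (651 EM and 131 PBS), as subsets. There were 465 EM and 226 PBS natural killer (NK) cells, 509 EM and 1586 PBS monocytes and macrophages, 356 EM and 170 PBS microglia, 241 EM and 67 PBS dendritic cells, and 106 EM and 53 PBS B cells. Plasma cells were few (16 EM and 44 PBS). The microglial markers summed to 11642 CPM in EM microglia and 5452 CPM in PBS microglia, against 872 CPM in EM macrophages and 465 CPM in PBS macrophages. Of these markers, Fcrls was at 423 CPM in EM microglia but at 1.39 CPM in PBS microglia. The monocyte and macrophage markers summed to 24937 CPM in EM microglia, near the 25057.5 CPM of EM macrophages. In PBS they summed to 14468 CPM in microglia and 22087 CPM in macrophages. Depth differed most in the myeloid classes. EM microglia had a median of 871.5 UMIs and PBS microglia 8023.5, and EM macrophages had 1109 against 9071.5 in PBS macrophages.

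Promoters of 33 of the 41 members were found in the RefSeq table (GRCm38.p6), each covering 250 bases before to 50 bases after the start of the gene. Mcm4, Ccne2, Stmn1, Kif20a, Ccna2, Tpx2, Gins2 and Aurkb had no entry and were not used in this count. An E2F core (TTCCCGC and its variant forms TTCGCGC, then also TTGCCGC, and lastly TTGGCGC, either strand) lay in the promoters of 9 of 15 S members and 3 of 18 G2M members, against 9.57% of all 32851 promoters in the table. The CHR letters (TTTGAA, either strand) lay in 1 of 15 S members and 13 of 18 G2M members, against 17.9% of all promoters. CCAAT, the letters bound by NF-Y, lay in 10 of 15 S members and 16 of 18 G2M members, against 37.4% of all promoters. An E2F core on the reverse strand can share letters with CCAAT. These are matches of letters and not measured binding sites.

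The 6 promoters below belong to the 3 G2M members with the lowest ratio of EM over PBS in T cells and the 3 S members with the highest, among those with an entry. Each is written 5′ to 3′ on the strand of the gene, with E2F, CHR and CCAAT letters in capitals.
Ccnb1 (chr13:100786437-100786736, minus strand): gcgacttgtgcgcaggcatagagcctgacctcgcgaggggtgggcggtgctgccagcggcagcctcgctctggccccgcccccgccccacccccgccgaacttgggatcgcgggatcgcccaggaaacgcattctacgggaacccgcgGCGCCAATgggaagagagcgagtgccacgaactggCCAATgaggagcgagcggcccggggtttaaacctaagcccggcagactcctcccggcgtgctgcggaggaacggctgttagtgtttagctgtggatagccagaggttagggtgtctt
Cenpf (chr1:189688037-189688336, minus strand): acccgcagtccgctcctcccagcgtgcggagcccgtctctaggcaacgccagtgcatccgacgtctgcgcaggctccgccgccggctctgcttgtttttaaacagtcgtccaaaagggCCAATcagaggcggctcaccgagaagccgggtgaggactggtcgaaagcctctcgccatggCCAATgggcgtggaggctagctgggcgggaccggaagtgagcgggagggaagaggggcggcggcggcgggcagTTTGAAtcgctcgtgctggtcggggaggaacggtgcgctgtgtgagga
Cdc20 (chr4:118437294-118437593, minus strand): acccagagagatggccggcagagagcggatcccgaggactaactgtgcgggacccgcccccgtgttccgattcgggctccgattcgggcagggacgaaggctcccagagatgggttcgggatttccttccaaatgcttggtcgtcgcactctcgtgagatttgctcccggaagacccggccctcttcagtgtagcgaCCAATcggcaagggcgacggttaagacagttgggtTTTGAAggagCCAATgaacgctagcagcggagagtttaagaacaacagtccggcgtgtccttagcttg
Mcm2 (chr6:88898731-88899030, minus strand): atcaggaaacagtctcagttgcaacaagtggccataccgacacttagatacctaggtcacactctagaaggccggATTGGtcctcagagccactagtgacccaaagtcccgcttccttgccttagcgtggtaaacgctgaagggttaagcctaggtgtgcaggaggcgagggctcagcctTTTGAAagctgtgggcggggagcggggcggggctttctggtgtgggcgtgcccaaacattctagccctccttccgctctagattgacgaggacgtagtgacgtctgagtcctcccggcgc
Mcm7 (chr5:138171834-138172133, minus strand): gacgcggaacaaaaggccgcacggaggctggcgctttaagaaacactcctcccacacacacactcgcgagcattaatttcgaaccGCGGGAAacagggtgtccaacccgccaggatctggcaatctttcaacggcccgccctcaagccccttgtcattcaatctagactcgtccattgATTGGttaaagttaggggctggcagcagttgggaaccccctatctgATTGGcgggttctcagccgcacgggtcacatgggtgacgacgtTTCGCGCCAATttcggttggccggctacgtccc
Pcna (chr2:132253131-132253430, minus strand): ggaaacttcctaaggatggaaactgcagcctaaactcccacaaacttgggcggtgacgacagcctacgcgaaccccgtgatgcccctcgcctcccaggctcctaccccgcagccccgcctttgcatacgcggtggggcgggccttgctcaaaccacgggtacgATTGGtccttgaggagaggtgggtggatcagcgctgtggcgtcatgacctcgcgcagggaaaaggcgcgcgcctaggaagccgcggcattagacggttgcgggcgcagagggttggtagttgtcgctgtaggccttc

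Cenpf and Cdc20 each carry 1 CHR match and 2 CCAAT matches. In Cdc20 the CHR match begins 18 bases before the start of the gene, and in Cenpf it lies just after the start. Ccnb1 has 2 CCAAT matches and an E2F match that overlaps the first of them, and no CHR letters in this window. Mcm7, for which the first of 2 listed starts is shown, has 3 E2F matches, a pair of them overlapping. Mcm2 and Pcna have none in this window, and Mcm2 is the S member with the CHR letters.

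In T cells, the S and G2M members of the module also differed in their ratios between the libraries (the plot of S and G2M levels by class). Summed over all T cells, the S members stood at 1541 CPM in EM and 1584 CPM in PBS, a log2 ratio of -0.04 (95% interval -0.07 to -0.02). The G2M members stood at 1076 CPM in EM and 2273 CPM in PBS, a log2 ratio of -1.08 (-1.11 to -1.05). The S members thus made up 58.9% of the S and G2M UMIs of EM T cells (58.4 to 59.4%) and 41.1% of those of PBS T cells (40.7 to 41.4%). The module as a whole was at 2873 CPM in EM T cells and 4144 CPM in PBS T cells. In such sums, fewer cycling cells and less RNA per cycling cell cannot be told apart.

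Scaling to the median gene in place of the total moved all T cell ratios by 0.11 (shift of the median gene -0.11), which put the S members at 0.07 and the G2M members at -0.97. With 4 markers required per cell in place of 3, which left 1186 EM and 437 PBS T cells, the S members stood at 0.31 and the G2M members at -0.62. The sign of the small S difference thus depends on the setting, whereas G2M members were lower in EM under each alternative run for T cells.

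**Figure D1:**
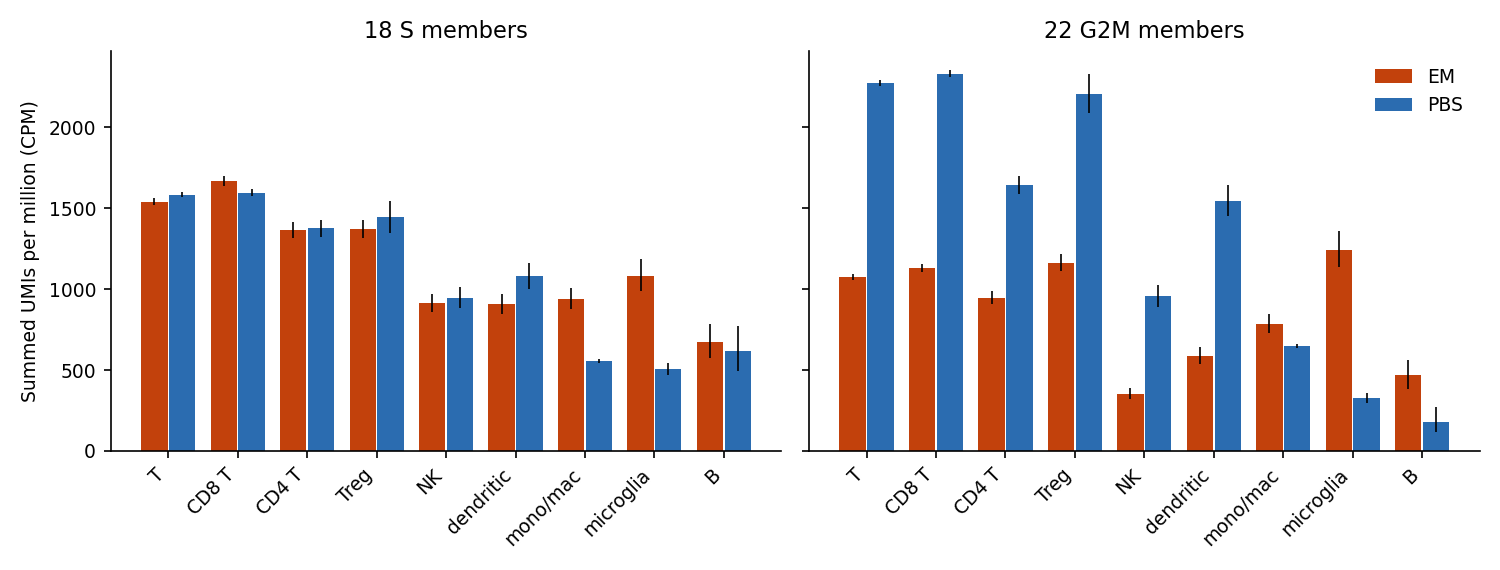
Summed level of the 18 S members (left) and 22 G2M members (right) in each cell class, in CPM of all UMIs of that class, for the EM library (left bar of each pair) and the PBS library (right bar). Error bars are exact 95% Poisson intervals for counting error only; G2M levels in T cells were 1076 CPM in EM and 2273 CPM in PBS, and in microglia 1245 CPM in EM and 327 CPM in PBS.

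The summed level of the G2M members was also lower in EM in each T cell subset, and so were the single members with enough UMIs except Cenpa in CD4 T cells and Aurka in Treg. G2M members stood at 1131 CPM in EM and 2333 CPM in PBS CD8 T cells (log2 ratio -1.04), at 947 and 1645 CPM in EM and PBS CD4 T cells (-0.80), and at 1163 and 2206 CPM in EM and PBS Treg (-0.92). S members were closer to equality, at 1671 CPM in EM and 1597 CPM in PBS CD8 T cells (0.07), 1365 and 1376 CPM in EM and PBS CD4 T cells (-0.01), and 1373 and 1445 CPM in EM and PBS Treg (-0.07). The S share of the S and G2M UMIs was 59.6% in EM and 40.6% in PBS CD8 T cells, 59.1% in EM and 45.5% in PBS CD4 T cells, and 54.1% in EM and 39.6% in PBS Treg. Of these, the CD4 ratio depended on how cells were assigned: with 4 markers required in place of 3, which left 308 EM and 56 PBS CD4 T cells, the G2M log2 ratio was 0.40. A gamma delta subset had 85 EM cells but 11 PBS cells and was not compared.

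Single members in T cells were set against all 13140 genes with at least 20 UMIs, of which 11.5% were at least 2-fold lower in EM and 5.3% at least 2-fold higher, with a median log2 ratio of -0.12. All 22 G2M members were lower in EM, with intervals below 0, and 15 of them at least 2-fold. Their median log2 ratio was -1.09 and their range -1.97 to -0.46. Of the 18 S members, 7 were higher and 11 lower, none by 2-fold in either direction, with a median of -0.07.

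**Figure D2:**
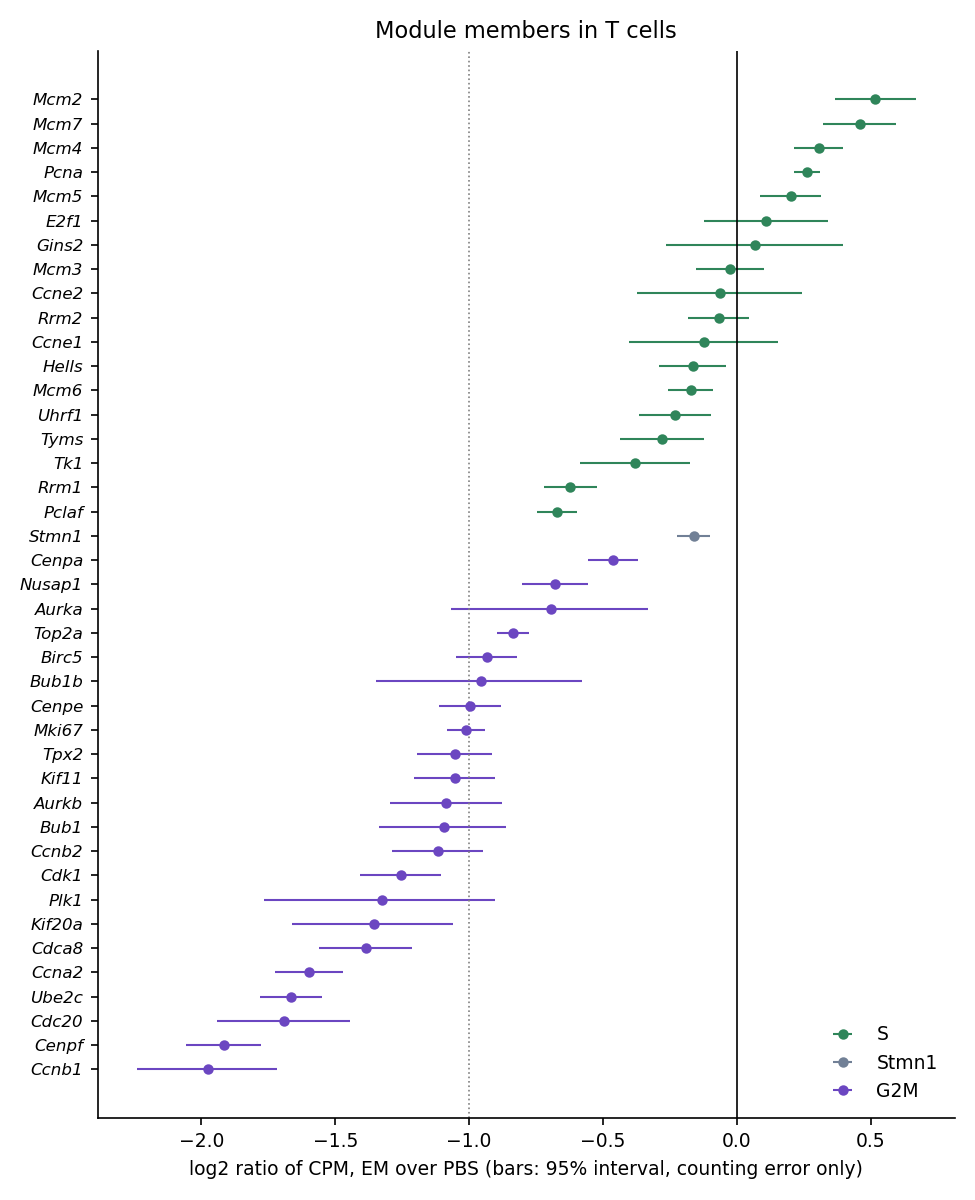
Log2 ratio of CPM, EM over PBS, for each of the 41 members in T cells, with 95% intervals for counting error only; the solid line marks equality and the dotted line 2-fold lower in EM. The 22 G2M members (purple) run from Cenpa at -0.46 to Ccnb1 at -1.97, and the 18 S members (green) from Mcm2 at 0.52 to Pclaf at -0.67.

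The minichromosome maintenance genes Mcm2 to Mcm7 encode the ring-shaped helicase that opens DNA for replication, and Gins2 a subunit that activates it. In T cells, Mcm2 was at 52.0 CPM in EM and 36.3 CPM in PBS, a log2 ratio of 0.52 (0.37 to 0.67). Mcm7 was at 63.1 CPM in EM and 45.9 CPM in PBS (0.46, interval 0.32 to 0.59). Mcm4 stood at 0.30 and Mcm5 at 0.20, so 4 of the 6 helicase genes had intervals above 0. Mcm3 was at -0.02, with an interval that included 0, and Mcm6 at -0.17. Gins2 was at 9.84 CPM in EM and 9.38 CPM in PBS (0.07, -0.26 to 0.40).

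Pcna, the sliding clamp of the replication fork, and Pclaf, a small protein that binds it, differed in direction. Pcna was at 469 CPM in EM and 391 CPM in PBS T cells, a log2 ratio of 0.26 (0.21 to 0.31). Pclaf was at 150 CPM in EM and 239 CPM in PBS, a log2 ratio of -0.67 (-0.75 to -0.60), the lowest of the S members. Without Pcna and the 6 Mcm genes, the remaining S members summed to a log2 ratio of -0.39 in T cells.

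Among enzymes that supply nucleotides, the large subunit of ribonucleotide reductase, Rrm1, was at 87.7 CPM in EM and 135 CPM in PBS T cells (-0.62), and its S-phase subunit Rrm2 at 77.9 and 81.6 CPM in EM and PBS (-0.07, interval including 0). Thymidylate synthase (Tyms) stood at -0.28 and thymidine kinase (Tk1) at -0.38, both with intervals below 0. The cyclins E, Ccne1 and Ccne2, which start S phase with Cdk2, and the transcription factor E2f1 had ratios of -0.12, -0.06 and 0.11, with intervals that included 0. Uhrf1, which guides the copying of DNA methylation, was at -0.23, and the chromatin remodeller Hells at -0.16.

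Genes that drive entry into mitosis and exit from it were among those with the lowest ratios. Ccnb1, cyclin B1, lies on chromosome 13 (mm10, chr13:100778650-100786570) and had 140 UMIs in EM T cells (10.8 CPM) and 917 in PBS T cells (42.6 CPM), a log2 ratio of -1.97 (-2.24 to -1.72). Cdc20 and Ube2c, the activator and the ubiquitin-conjugating enzyme of the anaphase-promoting complex, were at 12.5 and 55.0 CPM in EM T cells, against 40.2 and 174 CPM in PBS T cells, with ratios of -1.69 and -1.66. Cyclin A2, Ccna2, was at 46.5 CPM in EM and 141 CPM in PBS (-1.60). The kinase that these cyclins activate, Cdk1, was at 35.1 CPM in EM and 83.8 CPM in PBS (-1.26), and Ccnb2 stood at -1.12. All of these had ratios below those of Top2a, which untangles DNA strands (236 CPM in EM and 422 CPM in PBS, -0.84), and of Mki67, the proliferation marker that coats mitotic chromosomes (165 CPM in EM and 333 CPM in PBS, -1.01).

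The kinetochore joins chromosomes to the spindle. Its members Cenpf and Cenpe were at 37.3 and 61.3 CPM in EM T cells, against 140 and 122 CPM in PBS T cells, with ratios of -1.91 and -0.996. Cenpa, the histone variant that marks centromeres, was at 105 CPM in EM and 145 CPM in PBS (-0.46), the G2M member nearest to equality. The chromosomal passenger complex gave ratios of -1.39 for Cdca8, -1.08 for its kinase Aurkb and -0.93 for Birc5 (survivin). The checkpoint kinases Bub1 and Bub1b stood at -1.10 and -0.96, and the mitotic kinases Plk1 and Aurka at -1.32 and -0.69. Among spindle proteins, Kif20a, Kif11, Tpx2 and Nusap1 had ratios of -1.36, -1.05, -1.05 and -0.68. Stmn1, a protein that takes microtubules apart, was at 256 CPM in EM and 286 CPM in PBS (-0.16).

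In CD8 T cells, where 13.7% of 12290 genes were at least 2-fold lower, 13 of 22 G2M members and no S member were. The G2M members had a median of -1.03 and all genes -0.16. The lowest were Ccnb1 (-2.03), Cenpf (-1.71) and Cdc20 (-1.70) and the highest Mcm2 (0.67), Mcm7 (0.52) and Mcm4 (0.44). Mki67 stood at -1.04, Top2a at -0.71, Pclaf at -0.47, Rrm2 at 0.02, Mcm5 at 0.35, Pcna at 0.35 and Stmn1 at -0.08 in these cells.

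In CD4 T cells, 6 of the 21 G2M members with enough UMIs were at least 2-fold lower, against 7.1% of all genes, and the medians were -0.86 for them and -0.09 for all genes. Kif20a (-1.71), Ccna2 (-1.57) and Cenpf (-1.47) were lowest, and Mcm2 (0.52), Gins2 (0.51) and Mcm7 (0.43) highest. Mki67 stood at -0.86, Top2a at -0.61, Pclaf at -0.73, Ccnb1 at -1.11, Cdc20 at -0.89, Rrm2 at 0.15, Mcm5 at 0.11, Pcna at 0.29 and Stmn1 at 0.17. In Treg, 8 of 20 were at least 2-fold lower, against 6.13% of all genes, with medians of -0.96 for them and -0.05 for all genes. There Cenpf (-2.00), Ccnb1 (-1.53) and Cdc20 (-1.47) were lowest, and Mcm7 (0.99), Gins2 (0.78) and Aurka (0.62, from 17 EM and 4 PBS UMIs) highest. Of these 3, only Mcm7 had an interval above 0 (0.22 to 1.86). Mki67 stood at -1.24, Top2a at -0.97, Pclaf at -0.29, Rrm2 at 0.45, Mcm5 at -0.07, Pcna at 0.13 and Stmn1 at 0.14 in Treg.

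Over all kept cells, most of which were T cells in both libraries, the S members had higher ratios than in T cells alone. These pooled levels also depend on the mix of classes in each library. T cells held 12908450 of 19302929 UMIs in EM and 21526715 of 43538431 in PBS. Monocytes and macrophages held 917090 UMIs in EM and 15001917 in PBS, where their S members stood at 557 CPM. The part of this mix in the ratios was not tested. The helicase genes Mcm2, Mcm3, Mcm4, Mcm5, Mcm6 and Mcm7 stood at 43.5, 51.8, 109, 69.6, 114 and 52.9 CPM in the EM library, against 23.2, 45.4, 78.9, 46.3, 94.4 and 31.0 CPM in the PBS library. Each of the 6 was thus higher in EM over all cells, whereas in T cells Mcm3 stood at -0.02 and Mcm6 at -0.17. Gins2 was at 8.65 CPM in EM and 7.49 CPM in PBS, Pcna at 417 CPM in EM and 314 CPM in PBS, and Pclaf at 119 CPM in EM and 145 CPM in PBS. Rrm1, Rrm2, Tyms and Tk1 were at 73.5, 60.9, 32.3 and 19.4 CPM in the EM library, against 88.4, 51.5, 30.8 and 19.0 CPM in the PBS library. Of these enzymes, Rrm1 was lower in EM and Rrm2 higher. Ccne1, Ccne2, E2f1, Uhrf1 and Hells were at 10.9, 8.76, 17.3, 45.4 and 49.4 CPM in the EM library, against 9.90, 7.14, 15.8, 40.1 and 45.4 CPM in the PBS library.

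Of the G2M members, Cdk1, Ccna2, Ccnb1 and Ccnb2 were at 32.1, 39.9, 10.2 and 23.8 CPM in the EM library, against 58.3, 84.3, 27.3 and 39.0 CPM in the PBS library. Cdc20, Ube2c, Plk1 and Aurka were at 11.4, 48.5, 3.78 and 6.89 CPM in the EM library, against 26.2, 108, 7.69 and 10.1 CPM in the PBS library. All 8 of these were lower in EM. Aurkb, Birc5, Cdca8, Bub1 and Bub1b were at 15.4, 52.3, 21.6, 13.4 and 5.85 CPM in the EM library, against 27.1, 80.3, 43.9, 21.7 and 9.81 CPM in the PBS library. Cenpa, Cenpe and Cenpf were at 89.4, 54.0 and 29.6 CPM in the EM library, against 88.9, 83.7 and 85.4 CPM in the PBS library. Cenpa was the G2M member that did not differ beyond its counting error (log2 ratio 0.01, -0.07 to 0.09). Tpx2, Kif11, Kif20a and Nusap1 were at 38.2, 27.7, 8.76 and 44.8 CPM in the EM library, against 58.1, 45.6, 16.1 and 56.2 CPM in the PBS library. Mki67 and Top2a were at 128 and 194 CPM in the EM library, against 222 and 260 CPM in the PBS library, and Stmn1 at 213 CPM in EM and 179 CPM in PBS.

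**Figure D3:**
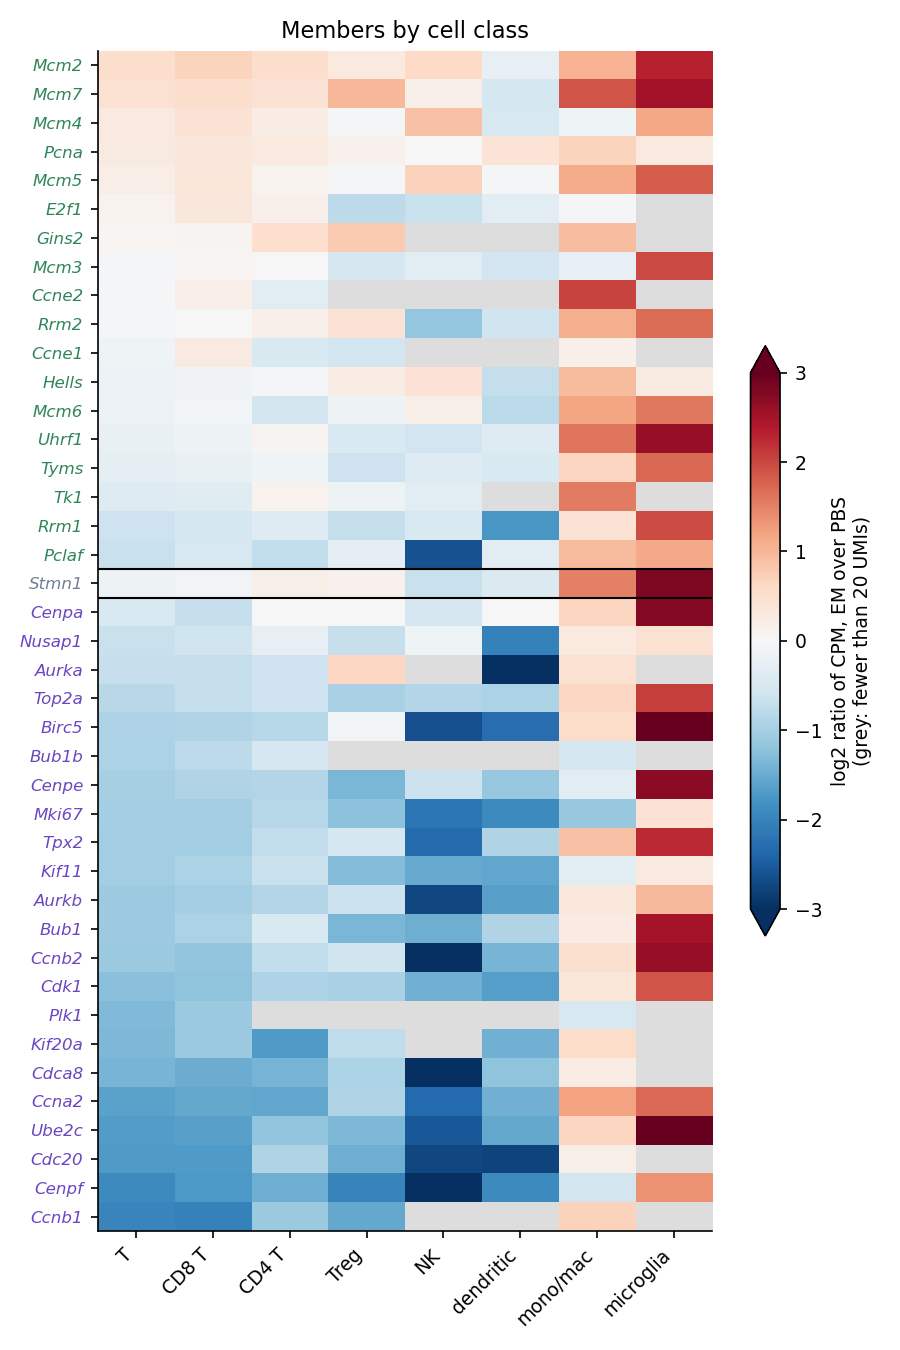
Log2 ratio of CPM, EM over PBS, of each member (rows, S members in green, Stmn1 in grey, G2M members in purple) in 8 cell classes (columns), on a scale limited at 3 in both directions, with grey cells where a member had fewer than 20 UMIs. G2M members are lower in EM (blue) in T cells, NK cells and dendritic cells, while all 29 members shown for microglia are higher (red).

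Genes of division outside the module were read from lists drawn up by function. Of all 13140 genes compared in T cells, 11.5% were at least 2-fold lower in EM. The median log2 ratio of all these genes was -0.12, so more genes were lower than higher. All 23 genes of spindle, kinetochore and cytokinesis were lower in EM T cells, 11 of them at least 2-fold, with a median of -0.98. They ran from the kinesin Kif2c at -1.67 (5.11 CPM in EM and 16.3 CPM in PBS) to Kif15 at -0.04. Of 22 genes of replication licensing and forks, 18 were lower and 4 higher, none by 2-fold. Their median of -0.24 was near that of all genes (-0.12). The licensing factor Cdt1 was highest at 0.34 and the chromatin assembly subunit Chaf1b lowest at -0.89. Of 10 genes of chromatin and condensin, 9 were lower, and Hmgb2, a DNA-bending protein abundant in dividing cells, was lowest at 846 CPM in EM and 1602 CPM in PBS (-0.92), while Smc4 was highest at 0.06.

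Controllers of the cycle differed among themselves in T cells, where the median of all genes was -0.12. Of 10 genes that control G2 and mitosis, 8 were lower and 2 higher: the phosphatase Cdc25c was lowest at -1.75 and the Cdk subunit Cks2 highest at 0.54. Among 7 transcription factors, 6 were lower and Myc alone higher, at 56.5 CPM in EM and 45.3 CPM in PBS (0.32), whereas Foxm1, which activates mitotic genes, was lowest (8.99 CPM in EM and 19.5 CPM in PBS, -1.12). Among 6 genes of G1 cyclins and kinases, 4 were higher. Cyclin D1 (Ccnd1) was highest at 11.0 CPM in EM and 4.32 CPM in PBS (1.35), and Cdk6 lowest at -0.38.

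Of 14 inhibitors and genes of quiescence, 7 were higher and 7 lower in EM T cells, with a median of -0.01. Klf2, a transcription factor of resting T cells, had the highest ratio of the list, at 247 CPM in EM and 43.5 CPM in PBS (2.50). The inhibitor gene Cdkn2a had the lowest, at 2.25 CPM in EM and 7.76 CPM in PBS (-1.79).

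Whether the difference lay in the number of cycling cells or in their RNA was examined by counting cells with 3 or more module UMIs. Because depth differed, each cell was first thinned to 1000 UMIs. At this depth 18.7% of EM T cells (17.7 to 19.9%) and 21.0% of PBS T cells (19.7 to 22.2%) had 3 or more, with 145 EM and 51 PBS T cells too shallow to enter. Unthinned, the shares were 40.5% in EM and 63.7% in PBS. The same share in neutrophils, taken as non-dividing and used as background, was 5.78% in PBS (median 1695 UMIs before thinning), and it was 2.92% in EM plasmacytoid dendritic cells (median 2980 UMIs). Unthinned, 7 of 568 PBS neutrophils had 10 or more module UMIs. Whether this class held dividing cells was not tested.

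The order of the T cell shares turned with depth, so none is read from it. At 2000 UMIs per cell, where 2404 of 5176 EM and 217 of 4077 PBS T cells were too shallow, the share was 43.6% in EM and 35.7% in PBS. The share of T cells with 2 or more G2M UMIs turned too. It was 10.7% in EM and 15.1% in PBS at 1000 UMIs, and 23.1% in EM and 21.6% in PBS at 2000 UMIs. What kept its order at both depths was the composition of the cells with 3 or more module UMIs. At 1000 UMIs, 32.4% of such EM T cells and 49.4% of such PBS T cells had more G2M than S UMIs, and at 2000 UMIs 24.8% in EM and 38.5% in PBS. The count also admits cells with S but no G2M UMIs, 29.3% of such EM and 15.2% of such PBS T cells at 1000 UMIs. Whether these cells were cycling was not tested. In CD8 T cells with 3 or more module UMIs at 1000, the mean was 3.26 G2M UMIs per EM cell and 5.57 per PBS cell, and 4.0 S UMIs per EM cell and 3.53 per PBS cell (SD over cells 4.55 in EM and 5.80 in PBS for G2M UMIs, and 2.98 in EM and 2.49 in PBS for S UMIs).

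**Figure D4:**
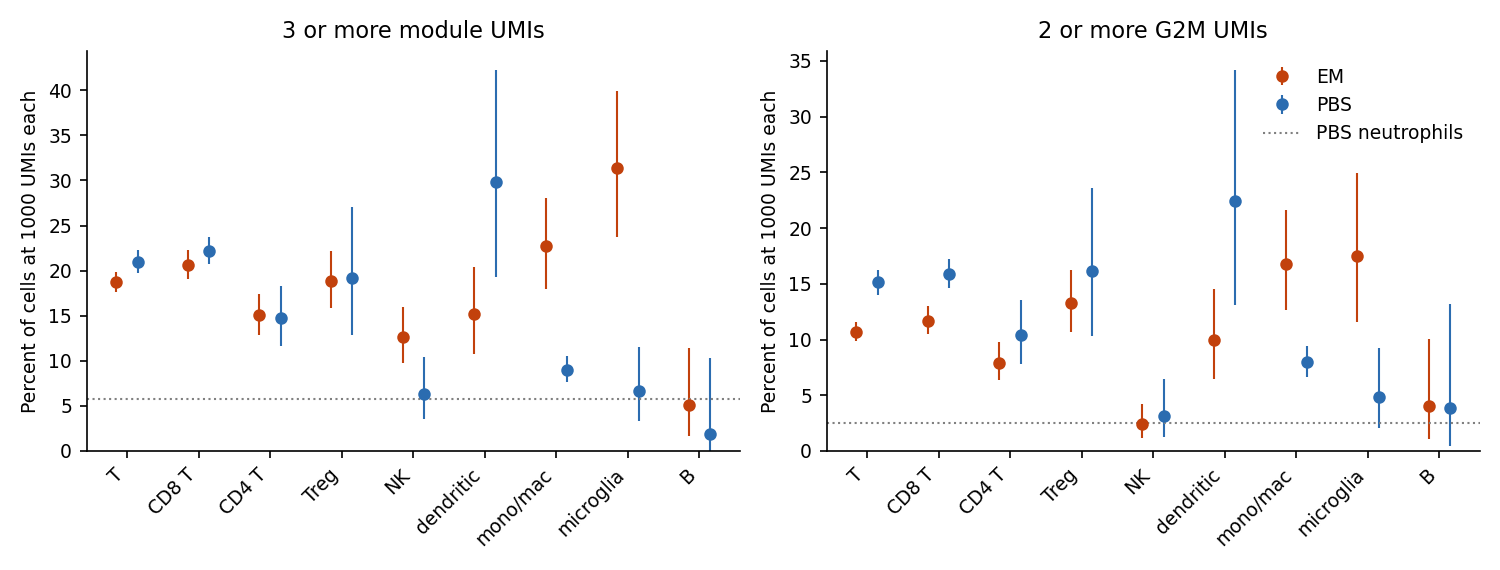
Percent of cells with 3 or more module UMIs (left) and with 2 or more G2M UMIs (right) after each cell was thinned to 1000 UMIs, for EM (left point of each pair) and PBS (right point), with exact 95% Clopper-Pearson intervals for counting error only; the dotted line is the share in PBS neutrophils. The module share was 31.4% in EM and 6.63% in PBS microglia, and 15.2% in EM and 29.9% in PBS dendritic cells. At 2000 UMIs per cell, which is not plotted, both T cell shares were higher in EM.

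G2M UMIs were concentrated in few T cells. Cells with 10 or more of them (315 EM cells, 6.09% of T cells, and 556 PBS cells, 13.6%) held 75.4% of all G2M UMIs of EM T cells and 92.2% of those of PBS T cells. They were counted without thinning, so deep cells reach this number more readily, and the shares of cells compare libraries of unlike depth, with a median of 2083 UMIs per T cell in EM and 4434 in PBS. CD8 T cells with 3 or more module UMIs at 1000, called cycling cells here, were deeper than the others within each library: a median of 3110 against 2117 UMIs in EM and 7614 against 4364 in PBS. Malat1, a nuclear RNA, was at 2215 CPM in cycling and 3307 CPM in other EM CD8 T cells, and at 1443 and 2651 CPM in cycling and other PBS CD8 T cells.

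Whether the members were found in the same cells was examined with Mki67 in CD8 T cells at 1000 UMIs. There were 199 EM and 349 PBS cells with Mki67. Cenpf was found in 18.6% of the EM cells with Mki67 and in 1.06% of the other EM cells, and in 30.7 and 1.66% of PBS cells. Pclaf was found in 29.1 and 3.68% of EM cells with and without Mki67, and in 42.1 and 4.32% of PBS cells. Both were thus found several times as often in cells with Mki67 as in the rest.

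Pcna, Mcm2 and Mcm6 had lower ratios between cells with and without Mki67 than Cenpf and Pclaf. Pcna was found in 51.8% of EM cells with Mki67 and 29.8% of those without, and in 40.4 and 23.3% of PBS cells, a ratio of 1.73 in both libraries. Mcm2 was found in 7.54 and 4.14% of EM cells with and without Mki67 (1.82), and in 3.44 and 2.66% of PBS cells (1.29). Mcm6 was found in 17.1 and 9.51% of EM cells and 12.9 and 11.3% of PBS cells. Pcna was also the member with the highest level in PBS neutrophils (363 CPM), which were at 65.4 CPM for Mki67 and 0.92 CPM for Ccnb1.

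**Figure D5:**
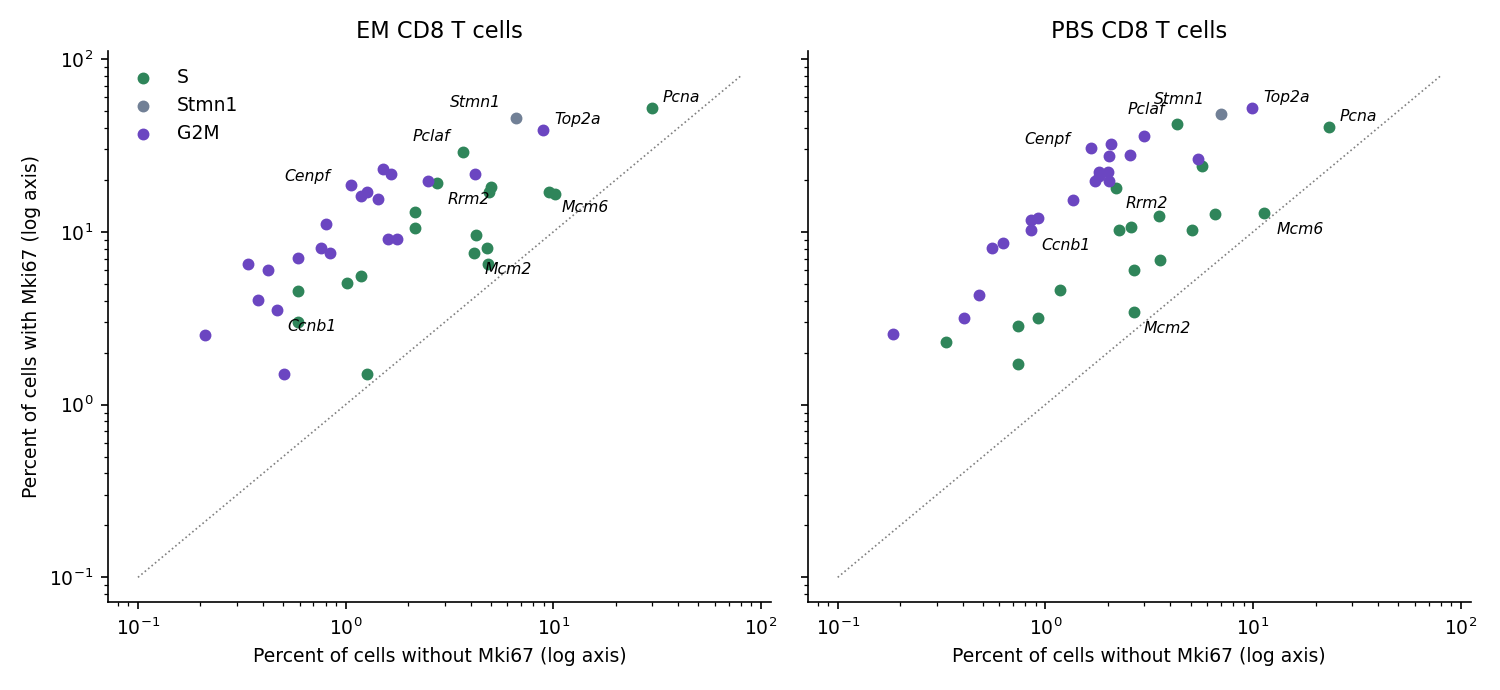
Percent of CD8 T cells with a UMI of each member among cells with Mki67 (vertical, log axis) and without Mki67 (horizontal, log axis), each cell thinned to 1000 UMIs, for EM (left, 199 cells with Mki67) and PBS (right, 349 cells). On the dotted line both shares are equal; Cenpf lies far above it at 18.6 and 1.06% in EM, and Mcm6 near it at 12.9 and 11.3% in PBS.

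Cycling CD8 T cells were compared with other CD8 T cells in genes of T cell state, which were chosen with results of these data known. The list of inhibitory receptors was at 621 CPM in cycling and 729 CPM in other EM CD8 T cells, and at 1377 and 1746 CPM in cycling and other PBS cells. Genes of naive and memory T cells were at 643 and 993 CPM in cycling and other EM cells, and at 378 and 808 CPM in cycling and other PBS cells. Both lists were thus lower in cycling cells of both libraries. So were the T cell markers, at 6525 CPM in cycling and 7553 CPM in other EM CD8 T cells. In PBS the T cell markers were at 6156 and 7212 CPM in cycling and other CD8 T cells. Whether the lists of T cell state were lower beyond the T cell markers was not tested. Between libraries, all 7 inhibitory receptor genes were lower in EM over all T cells, and 3 at least 2-fold, against 11.5% of all genes. Havcr2 was lowest (78.9 CPM in EM and 206 CPM in PBS, -1.38). All 7 were also lower in EM CD8 and CD4 T cells, but in Treg the genes were split. There 4 of the 6 with enough UMIs were higher in EM, 2 of them at least 2-fold, against 6.57% of all genes, and 2 were lower. Havcr2 was among the higher, at 99.2 CPM in EM and 28.6 CPM in PBS Treg (163 and 17 UMIs). Ctla4 was lowest, at 1372 CPM in EM and 2478 CPM in PBS Treg (-0.85). The summed list was lower in EM Treg as well, at 2011 CPM against 2906 CPM in PBS.

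NK cells shared the pattern of T cells in G2M members. These stood at 352 CPM in EM and 955 CPM in PBS, a log2 ratio of -1.44 (-1.61 to -1.27), while S members were at 914 CPM in EM and 948 CPM in PBS (-0.05, interval including 0). Without Pcna and the 6 Mcm genes, the remaining S members of NK cells summed to a log2 ratio of -0.82 (-1.08 to -0.56). At least 2-fold lower were 13 of the 17 G2M members with enough UMIs and 2 of 15 S members, against 8.27% of 8069 genes. The median was -2.30 for the G2M members, -0.31 for the S members and -0.10 for all genes. Ccnb2 had 2 UMIs in EM and 20 in PBS (-3.89, -7.03 to -1.84), Cdca8 3 in EM and 24 in PBS (-3.56, -5.94 to -1.84) and Cenpf 5 in EM and 38 in PBS (-3.49), and Pclaf was at 17.0 CPM in EM and 104 CPM in PBS (-2.61). Mcm4 (0.87), Mcm5 (0.68) and Mcm2 (0.59) were the highest, the last with an interval that included 0.

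Other members named in each class were, in NK cells, Mki67 with 47 UMIs in EM and 142 in PBS (-2.16), Top2a at 96.1 CPM in EM and 176 CPM in PBS (-0.87), Rrm2 at 14.5 CPM in EM and 32.2 CPM in PBS (-1.15), Stmn1 at 80.8 CPM in EM and 128 CPM in PBS (-0.66), and Cdc20 with 4 UMIs in EM and 18 in PBS (-2.73). Ccnb1 had 3 UMIs in EM and 12 in PBS, and Pcna was near equality (300 CPM in EM and 295 CPM in PBS). The NK result rests on few cells. In PBS, 7 NK cells with 10 or more G2M UMIs held 84.1% of the class's G2M UMIs, and in EM 4 such cells held 40.1%. With equal weight for each cell the G2M log2 ratio was -0.65, and with the stricter gate, which left 20 EM and 9 PBS cells, it was 0.11. At 1000 UMIs, 12.6% of EM and 6.36% of PBS NK cells had 3 or more module UMIs (unthinned 38.7% in EM and 37.6% in PBS). This order goes against the CPM, and the shares with 2 or more G2M UMIs (2.39% in EM and 3.18% in PBS) were near that of PBS neutrophils (2.50%).

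Dendritic cells had the lowest module ratio of the classes compared, at 1623 CPM in EM and 2797 CPM in PBS (-0.78, -0.89 to -0.68). G2M members were at 588 CPM in EM and 1545 CPM in PBS (-1.39), and S members at 908 CPM in EM and 1081 CPM in PBS (-0.25). Aurka had the lowest ratio (3 UMIs in EM and 21 in PBS, -3.26), followed by Cdc20 (-2.77) and Birc5 (-2.28), and Pcna the highest (339 CPM in EM and 253 CPM in PBS, 0.42). At least 2-fold lower were 15 of 19 G2M members and 1 of 14 S members, against 7.9% of 7302 genes. The S member was Rrm1, at 29.3 CPM in EM and 98.3 CPM in PBS (-1.75). The median of the G2M members was -1.53, against -0.03 for all genes. Cells with 3 or more module UMIs at 1000 were 15.2% of EM and 29.9% of PBS dendritic cells (intervals 10.8 to 20.4% in EM and 19.3 to 42.3% in PBS), and unthinned 36.1% in EM and 68.7% in PBS. In PBS, 16 of the 67 cells carried 95.2% of the G2M UMIs. Of the 16 spindle, kinetochore and cytokinesis genes with enough UMIs, all were lower in EM dendritic cells and 13 at least 2-fold.

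In monocytes and macrophages the module was higher in EM, at 1929 CPM against 1279 CPM in PBS (0.59, 0.52 to 0.66). S members were at 941 CPM in EM and 557 CPM in PBS (0.76), and G2M members at 785 CPM in EM and 651 CPM in PBS (0.27). At least 2-fold higher were 8 of 18 S members, 1 of 22 G2M members and Stmn1, 10 in all of 41, against 7.51% of 11673 genes, whose median log2 ratio was -0.31, against 0.55 for the members. The highest were Ccne2 (2.03, from 7 EM and 28 PBS UMIs), Mcm7 at 52.3 CPM in EM and 14.2 CPM in PBS (1.88), and Uhrf1 at 41.4 CPM in EM and 13.7 CPM in PBS (1.60). Stmn1 was at 203 CPM in EM and 70.9 CPM in PBS (1.52), and Ccna2, the G2M member past 2-fold, at 65.4 CPM in EM and 28.4 CPM in PBS (1.20).

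Of the members of this class, 32 were higher and 9 lower in EM, 6 of the 22 G2M members among the lower. Mki67 was the lowest, at 51.2 CPM in EM and 114 CPM in PBS (-1.15, -1.60 to -0.73), and no other member was at least 2-fold lower. Cenpf (-0.55) and Bub1b (-0.52) followed, with intervals that included 0. Of other members named in each class, Pclaf stood at 0.95, Rrm2 at 1.06, Mcm5 at 1.10, Pcna at 0.67, Top2a at 0.63, Ccnb1 at 0.69 and Cdc20 at 0.18, the last 2 with intervals that included 0. Among cells at 1000 UMIs, 22.7% in EM and 9.01% in PBS had 3 or more module UMIs, but 223 of 509 EM cells and 65 of 1586 PBS cells were too shallow. Unthinned, the shares were 34.0% in EM and 66.5% in PBS, and at 2000 UMIs 15.6% in EM and 15.7% in PBS, so the order of the shares turns with depth.

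The macrophage ratio also depended on which cells were counted. Among cells with at least 1000 UMIs, the module log2 ratio was 0.27 and that of the G2M members -0.04, whereas with equal weight for each cell the module ratio was 1.36. The EM cells with 3 or more module UMIs at 1000 were shallower than the others, with a median of 1415 against 2901 UMIs, whereas in PBS they were deeper (12144 against 9281.5). Malat1 was at 431 CPM in these EM cells and 1362 CPM in the other EM macrophages. RNA of T cells was also more frequent in EM macrophages: relative to T cells of the same library, T cell markers stood at 2.07% in EM and 0.79% in PBS, and cytotoxic genes at 228 CPM in EM (4.01%) and 36.6 CPM in PBS (0.793%). The part of depth, of T cell RNA and of cells low in Malat1 in the EM level was not tested.

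Microglia showed the largest difference of the module, at 2691 CPM in EM and 883 CPM in PBS, a log2 ratio of 1.61 (1.49 to 1.72), or 3.05-fold. The cells of this class were unlike in the libraries, with Fcrls at 423 CPM in EM and 1.39 CPM in PBS, and the comparison may thus be between different cells. G2M members were at 1245 CPM in EM and 327 CPM in PBS (1.93), and S members at 1084 CPM in EM and 504 CPM in PBS (1.11). The S share of S and G2M UMIs was 46.6% in EM (43.4 to 49.8%) and 60.6% in PBS (57.8 to 63.4%), the opposite order to that in T cells. Of the 29 members with enough UMIs, all were higher in EM and 23 at least 2-fold, against 9.32% of 7990 genes. The median log2 ratio was 1.89 for the members and -0.24 for all genes. They comprised 11 of 13 S members, 11 of 15 G2M members and Stmn1.

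Ube2c led in microglia with 56 UMIs in EM (136 CPM) and 14 in PBS (9.73 CPM), a log2 ratio of 3.81 (2.94 to 4.77). Birc5 followed with 32 UMIs in EM and 12 in PBS (3.22), and Stmn1 was at 362 CPM in EM and 52.1 CPM in PBS (2.80). Top2a was at 224 CPM in EM and 53.5 CPM in PBS (2.06), Mcm5 at 46.2 CPM in EM and 13.2 CPM in PBS (1.81), Rrm2 at 53.5 CPM in EM and 16.7 CPM in PBS (1.68), and Pclaf at 65.6 CPM in EM and 29.9 CPM in PBS (1.14). The lowest ratios were those of Hells (0.28), Kif11 (0.28) and Pcna (348 CPM in EM and 283 CPM in PBS, 0.30). Mki67 was at 92.4 CPM in EM and 68.1 CPM in PBS (0.44, interval including 0). Ccnb1 had 11 UMIs in EM and 6 in PBS, and Cdc20 5 in each.

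Genes of division outside the module differed by list in microglia. Of all 7990 genes compared there, 9.32% were at least 2-fold higher in EM, and the median log2 ratio was -0.24. Of 12 spindle, kinetochore and cytokinesis genes with enough UMIs, 10 were higher in EM, 9 of them at least 2-fold, led by Spc25 (3.57), and Anln was lowest (-1.13, interval including 0). Of 13 replication genes, 11 were higher, from Prim1 at 2.10 down, and Slbp was lowest at -1.45. Both transcription factors with enough UMIs were lower in EM, Myc at -1.56 and E2f3 at -1.09. Of 12 inhibitors and genes of quiescence, 4 were higher and 8 lower. Btg2, which restrains division, was lowest at 75.4 CPM in EM and 1026 CPM in PBS (-3.77), and the inhibitor gene Cdkn2c highest at 43.8 CPM in EM and 17.4 CPM in PBS (1.33, 0.37 to 2.26).

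At 1000 UMIs, 31.4% of EM microglia (23.7 to 39.9%) and 6.63% of PBS microglia (3.35 to 11.5%) had 3 or more module UMIs, but 219 of the 356 EM cells and 4 of the 170 PBS cells were too shallow to enter. At 2000 UMIs the shares were 36.6% of 41 EM cells and 10.1% of 159 PBS cells. Unthinned, they were 28.7% in EM and 63.5% in PBS, from cells of unlike depth, and no order is read from these.

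RNA of T cells was also more frequent among EM microglia. The 9 T cell markers summed to 255 CPM in EM microglia, 3.78% of their level in EM T cells, and to 37.5 CPM in PBS microglia, 0.591%. The 6 cytotoxic genes were at 267 CPM in EM microglia (4.71% of the T cell level) and 18.8 CPM in PBS microglia (0.406%). If such RNA held the module at the mean level of EM T cells, those shares would carry 108 or 135 CPM in EM microglia. The module level measured there was 2691 CPM. Which T cells the RNA came from is not known, and module UMIs differed between T cells. The tenth of EM T cells with the most module UMIs held 70.5% of them. The values at the mean level therefore set no upper limit on the module UMIs that such RNA could carry. In the EM microglia with 3 or more module UMIs at 1000, T cell markers were at 349 CPM (15 UMIs), against 170 CPM (16 UMIs) in the others. Malat1 was lower in EM microglia, at 545 CPM against 2169 CPM in PBS. Among cells with at least 1000 UMIs the module ratio in microglia was 1.64 and, with the stricter gate, 1.61 from 173 EM and 9 PBS cells. The part of depth, of T cell RNA and of cells low in Malat1 in the microglial level was not tested.

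B cells held too few UMIs for most members. The module was at 1225 CPM in EM and 825 CPM in PBS (0.57, 0.25 to 0.90), with 307 UMIs in EM and 109 in PBS, and 5 members had enough UMIs. With the stricter gate, which left 11 EM and 4 PBS cells, the log2 ratio was -0.90. At 1000 UMIs, 5.05% of EM and 1.92% of PBS B cells had 3 or more module UMIs. The background shares were 5.78% in PBS neutrophils and 2.92% in EM plasmacytoid dendritic cells. Plasma cells, which no longer divide once mature, were at 245 CPM in EM and 1050 CPM in PBS, from 29 UMIs in EM and 539 in PBS. Plasmacytoid dendritic cells (178 EM cells, 597 CPM) and basophils with mast cells (153 EM cells, 676 CPM) had 2 PBS cells each, and neutrophils 1 EM cell and 568 PBS cells (700 CPM in PBS), so none of these was compared.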

How the data were processed

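Gene counts (UMIs per gene and cell) were used as deposited in the authors' matrices, 1 per library. Reads were processed with CASAVA 1.8 and STARsolo on mm10, per the submitters' processing notes. For annotation and cell calling, the sources used here state nothing. Of 8039 EM and 8333 PBS barcodes, cells with at least 500 UMIs, at least 200 genes and at most 20% mitochondrial UMIs were kept (64 EM and 573 PBS barcodes were over the last limit). Kept cells held 19302929 UMIs in EM and 43538431 in PBS.

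A cell was assigned to the class of which it contained at least 3 markers, if that class led the next by at least 10% of its markers, and microglia needed at least 2 markers of their own. These limits were set on the files without reading the members. No doublet caller was run, and cells with markers of several classes that did not meet the lead stayed out. Counts were summed per class and library and given as CPM, counts per 1000000 UMIs of that class. Genes with at least 20 UMIs over both libraries were compared, and a difference of at least 2-fold was counted. Ratios carry exact 95% intervals conditional on the summed UMIs, and shares exact Clopper-Pearson intervals, both for counting error only. Shares were taken after thinning each cell to 1000 or 2000 UMIs without replacement.

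Every member was named with its level over all kept cells, and per class with at least 100 cells in each library the 3 highest and 3 lowest members and Mki67, Top2a, Pclaf, Rrm2, Mcm5, Pcna, Ccnb1, Cdc20 and Stmn1. From each list of other genes the highest and lowest member were named in T cells, and some of them in other classes. The members and lists were chosen with earlier results of these data known. H2afz and H2afx were matched as H2az1 and H2ax by gene ID. Positions were taken from GENCODE M21, which held 31107 of the 31253 genes, and promoter sequences from RefSeq (GRCm38.p6). Alternatives changed the scaling, the weight of cells, the member set, the filters, the gate, the depth and the threshold for cycling cells. Python 3.11.15 with numpy 2.4.6, scipy 1.17.1, pandas 2.3.3 and matplotlib 3.10.9 was used, and the procedure was tested on simulated data.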

Additional observations from a re-analysis of the deposited data

Results flagged for a closer look

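The module and its G2M members were lower in EM in T cells, NK cells and dendritic cells and higher in EM in macrophages, microglia and B cells. The log2 ratio of the module, EM over PBS, was -0.53 in T cells, -0.59 in NK cells and -0.78 in dendritic cells, but 0.59 in monocytes and macrophages, 1.61 in microglia and 0.57 in B cells. For the G2M members it was -1.08 in T cells, -1.44 in NK cells and -1.39 in dendritic cells, but 0.27 in monocytes and macrophages, 1.93 in microglia and 1.36 in B cells. Some of these directions turned: the G2M ratio was -0.042 in macrophages with at least 1000 UMIs, and with the stricter gate it was 0.11 in NK cells and -3.14 in B cells, whose module ratio was then -0.90 and that of NK cells 0.43. With 1 library per group, the difference between classes was not tested.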

How the results depend on the processing

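The log2 ratios, EM over PBS, were recomputed under each alternative. In T cells the module (-0.53) was at -0.42 with median-gene scaling, -0.34 with equal weight per cell, -0.56 without Stmn1, -0.68 as the median of the members with or without the UMI minimum, -0.10 with the stricter gate, -0.66 without cells above the 95th percentile of UMIs and -0.29 with each cell thinned to 1000 UMIs before summing, a setting chosen after seeing the data. The S members (-0.04) were at 0.070 scaled, 0.081 with equal weight, -0.39 without Pcna and the Mcm genes, -0.066 as a median with or without the minimum, 0.31 with the stricter gate, -0.14 without the deepest cells and 0.10 thinned. The G2M members (-1.08) were at -0.97 scaled, -0.85 with equal weight, -0.62 with the stricter gate, -1.24 without the deepest cells and -0.77 thinned. The log2 ratio of T cell shares (-0.16) was 0.059 at 2 UMIs, -0.46 at 5 UMIs, -0.65 unthinned, 0.29 at 2000 UMIs, -0.73 for G2M members alone at 1000 UMIs per cell and 0.29 with the stricter gate. In NK cells the module was at -0.44 scaled, -0.041 with equal weight, -0.87 as a median with no minimum, 0.43 with the stricter gate, -0.78 without the deepest cells and -0.035 thinned, and the share at -0.26 at 5 UMIs, 0.042 unthinned and -1.33 for G2M members alone. In macrophages the module was at 0.74 scaled, 1.36 with equal weight, 0.52 without Stmn1, 0.27 in cells with at least 1000 UMIs, 1.84 with the stricter gate, 1.17 without the deepest cells and 1.07 thinned, and the share at 0.85 at 2 UMIs, -0.97 unthinned, -0.0090 at 2000 UMIs and 2.19 with the stricter gate. In microglia the module was at 1.46 with equal weight, 1.49 without Stmn1, 1.89 as a median, 1.95 with no minimum and 1.83 without the deepest cells, and the share at -1.15 unthinned and 0.82 with the stricter gate.

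Further signs turned. The CD8 S members were at -0.27 without Pcna and the Mcm genes and -0.043 without the deepest cells. The CD4 module was at 0.26 with the stricter gate and 0.055 thinned. With the stricter gate the G2M members were at 0.40 in CD4 T cells, 0.11 in NK cells and -3.14 in B cells, and the B cell module at -0.90. In macrophages with at least 1000 UMIs the G2M members were at -0.042. The cause of these shifts was not tested. No library could be left out, since each group had 1. No paired analysis was possible because each group had 1 library and no test was made. EM cells were shallower than PBS cells in every class compared except B cells, so shares of EM macrophages and microglia rest on the deeper part of those cells.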
